A study of Mus musculus with 12 samples.

Results

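Lipoprotein lipase (Lpl), the lipase inhibitor gene Angptl4, the fatty acid transporter gene Cd36 and the adipocyte fatty acid binding protein gene Fabp4 are described here by the binding sites of the nuclear receptor Rev-Erbα that lay beside them in mouse brown adipose tissue. Every row of the 2 deposited peak lists whose annotated gene was one of these 4 was taken. This gave 12 sites of 11227 in the list for 4 °C and 1 site of 2183 in the list for 29 °C, or 13 rows of 13410. Lpl and Cd36 had 4 sites each at 4 °C, Angptl4 and Fabp4 had 2 each, and the single site at 29 °C belonged to Lpl.

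The study mapped Rev-Erbα by ChIP-seq, which sequences the DNA that comes down with a protein, in C57BL/6 mice kept for 1 week at 4 °C, a chronic cold challenge, or at 29 °C, which is thermoneutral for mice. The groups were HA-RevErbα mice at 4 °C (4 libraries), HA-RevErbα mice at 29 °C (4 libraries), WT mice at 4 °C (2 libraries) and WT mice at 29 °C (2 libraries), all pulled down with magnetic beads against the HA tag. WT mice carry no HA tag, so their libraries measure the background of the pull-down. The age of the mice, the time of day of collection and how the tag was introduced are not stated in the labels. The authors pooled the libraries of each group before they counted reads in the sites, so no binding value has a replicate error, and no test between temperatures was possible.

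Brown adipocytes burn fatty acids to make heat and take many of them from triglyceride-rich lipoproteins in the blood. LPL, secreted by adipocytes and held on the capillary wall by GPIHBP1, splits the triglycerides. ANGPTL4 inactivates LPL. CD36 helps the released fatty acids into the cell, where FABP4 binds them in the cytosol. All 4 genes are known targets of PPARγ, the main transcription factor of adipocytes. Rev-Erbα, the product of Nr1d1, is a repressor of the circadian clock that recruits the NCoR and HDAC3 corepressor complex, and it binds the core motif AGGTCA.

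The aligned libraries held 28.7 to 37.3 M (mega) reads for HA-RevErbα at 4 °C, 27.0 to 36.9 M for HA-RevErbα at 29 °C, 29.2 and 32.6 M for WT at 4 °C and 27.4 and 36.1 M for WT at 29 °C. The pools behind the values held 63.8, 60.8, 27.1 and 25.1 M reads in the same order. That is 49.8, 49.2, 43.9 and 39.5% of the aligned reads of these groups. Which reads were left out could not be read from the values. Values are FPKM, used here for the density of reads in windows of 200 bp and not for RNA, and 3 reads correspond to 0.235 FPKM in the HA-RevErbα 4 °C pool and 0.247 FPKM in the HA-RevErbα 29 °C pool. Intervals are exact intervals at the 95% level and cover counting error only; without molecular identifiers, reads of the same molecule cannot be told apart. They leave out the variation between animals. Whether the tissue was free of other cell types could not be read from these binding data.

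The 12 windows lie on build mm9, whose genome was not at hand, so their own sequences are not printed. The promoter table from RefSeq (build GRCm38.p6) matched Cd36 of the 4 genes. Its window of 250 bases before to 50 after the start, on the minus strand at chr5:17835847-17836146, is shown because it shows where the core motif stands relative to an annotated Cd36 start. Capitals mark the match to AGGTCA.

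Cd36 promoter: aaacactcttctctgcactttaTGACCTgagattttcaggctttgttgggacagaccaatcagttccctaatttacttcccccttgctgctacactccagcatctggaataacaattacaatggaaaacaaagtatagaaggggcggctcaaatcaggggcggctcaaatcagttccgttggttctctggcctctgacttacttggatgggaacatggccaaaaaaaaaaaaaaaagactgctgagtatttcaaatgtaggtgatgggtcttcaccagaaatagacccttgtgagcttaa

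AGGTCA was searched on both strands and stood here once, on the strand opposite to the gene (as TGACCT), beginning at base -228. Of all 32851 promoter windows in the table, 16.3% held at least 1 match, so a match is common. In the authors' annotation the Cd36 site nearest to any start lay at 0.906 kb, so no listed Cd36 site was centred in a window of this kind.

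The comparison of HA-RevErbα with WT at each temperature asks where the tagged receptor gave more signal than the untagged background. At 4 °C the answer was fixed in advance for the windows of the 4 °C list. Each exceeds WT there by at least 3 FPKM and, within rounding, at least 4 times. At 4 °C the 12 windows had 5.73 to 28.08 FPKM in the HA-RevErbα pool (median 18.0) and 1.3 to 4.43 FPKM in the WT pool (median 2.23). At 29 °C the same windows had 1.16 to 9.47 FPKM in the HA-RevErbα pool (median 5.56) and 0.81 to 5.59 FPKM in the WT pool (median 2.4). Taken over the whole 4 °C list, the medians were lower in each pool, at 7.07 and 2.39 FPKM for HA-RevErbα and 1.12 and 1.21 FPKM for WT at 4 °C and 29 °C. The peak score of the authors, which counts the reads of a site per 10 M pooled reads, exceeded the median of the 4 °C list at 11 of the 12 sites. In this list the score restates the HA-RevErbα 4 °C density. By the score of its best site each of the 4 genes stood in the top 4.46% of the 5451 genes with a site at 4 °C. The genes were chosen with earlier results of these data known, so their rank is no independent result. It was not adjusted for the number of sites per gene.

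**Figure D1:**
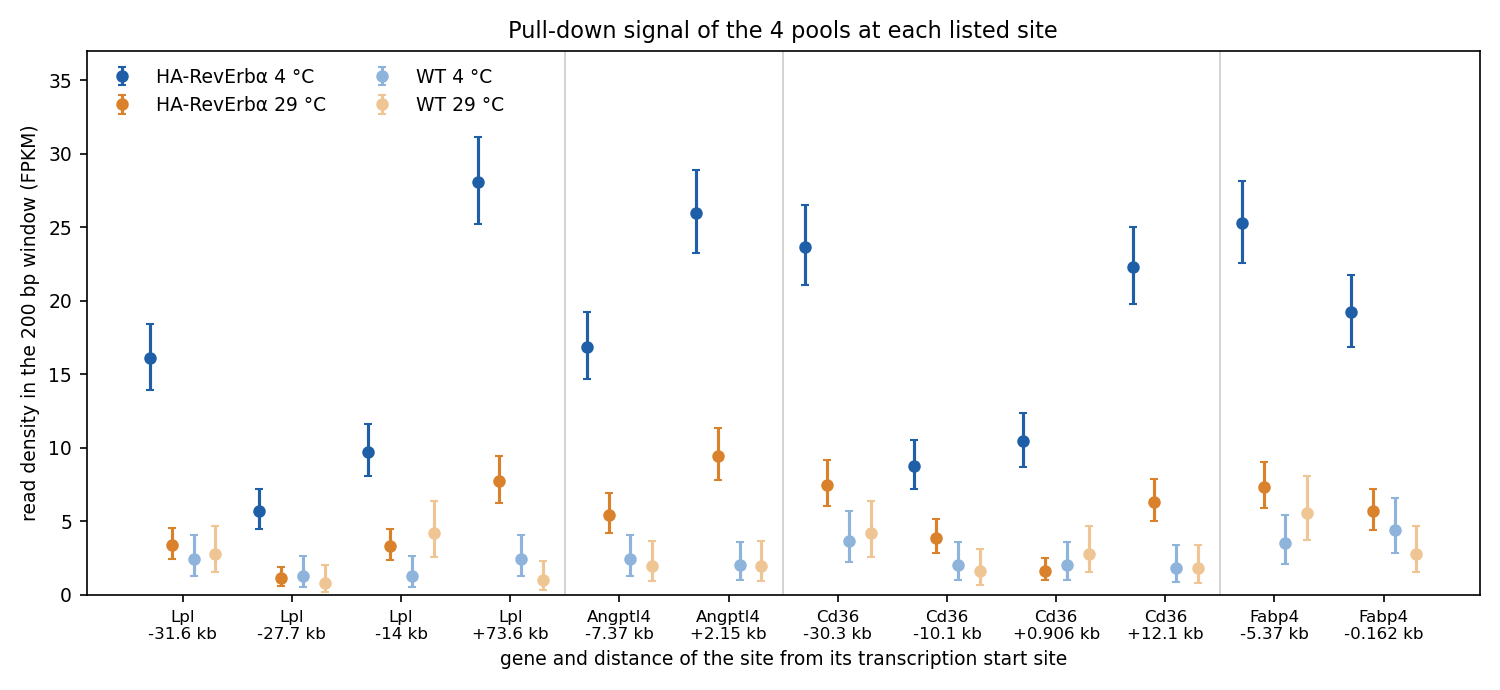
Read density (FPKM) in the 4 pools at each of the 12 sites of the 4 °C list, ordered by gene and by distance from the transcription start site; bars are exact 95% intervals for counting error. The HA-RevErbα 4 °C value is the highest of the 4 pools at every site, from 5.73 to 28.08 FPKM.

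Lpl had the strongest site of the group and also the weakest. The strongest lay 73.6 kb downstream of the transcription start site (TSS), in an intergenic stretch of chromosome 8 from 71477980 to 71478180. It had 28.08 FPKM in HA-RevErbα at 4 °C and 7.74 at 29 °C, against 2.41 in WT at 4 °C and 1.01 at 29 °C. Its score of 56.1 ranked 157 in the 4 °C list, and in the 29 °C list the same place (71477985 to 71478185) scored 15.6 and ranked 614. HA-RevErbα exceeded WT 11.7 times at 4 °C (interval 6.76 to 22.2) and 7.75 times at 29 °C (3.21 to 24.4). It was the only one of the 12 to appear in both lists, 1 of 12 against 14.9% of all 4 °C sites.

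The remaining Lpl sites lay upstream of the gene. At -31.6 kb (chromosome 8, 71372755 to 71372955) HA-RevErbα had 16.09 FPKM at 4 °C and 3.38 at 29 °C, and WT had 2.41 and 2.8. At -14.0 kb (71390334 to 71390534) HA-RevErbα had 9.73 FPKM at 4 °C and 3.3 at 29 °C, and WT had 1.3 and 4.2. At -27.7 kb (71376655 to 71376855) HA-RevErbα had 5.73 FPKM at 4 °C and 1.16 at 29 °C, and WT had 1.3 and 0.81. At 4 °C these 3 sites stood clear of WT, which is a condition of the 4 °C list. At 29 °C, on which that list was not selected, the HA-RevErbα over WT ratio had an interval that included 1 at each of them (1.21, 0.786 and 1.44 in the order given). The same held at 6519 of the 11227 windows of the list, so it does not set these sites apart. The site at -27.7 kb rested on 73 reads at 4 °C and 14 at 29 °C, so it is the least precise of the 12. No Lpl site was annotated to the promoter or to an intron.

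Angptl4 had a site inside the gene and a site upstream. The intronic site, 2.15 kb downstream of the TSS, lay in intron 3 of 6 (chromosome 17, 33916271 to 33916471). The density there was 25.97 FPKM in HA-RevErbα at 4 °C and 9.47 at 29 °C, while the WT pools had 2.04 and 2.0. The value of 9.47 FPKM was the highest of the 12 windows at 29 °C. HA-RevErbα exceeded WT there 12.8 times at 4 °C (7.06 to 25.9) and 4.74 times at 29 °C (2.49 to 10.2). At 29 °C the site thus reached both limits that every listed site reaches within rounding, at least 3 FPKM over WT and at least 4 times WT, yet it was not in the 29 °C list. Of the 12 windows, 2 reached both limits at 29 °C, this site and the distal Lpl site, against 13.6% of all 4 °C windows. The limit of 3 FPKM over WT was reached at 29 °C by 5 of the 12, against 18.5% of all 4 °C windows, and that of 4 times WT by 2 of the 12, against 23.9%.

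The upstream Angptl4 site, at -7.37 kb (33925785 to 33925985), fell in an L1MC4 element, a LINE repeat. It had 16.87 FPKM in HA-RevErbα at 4 °C and 5.44 at 29 °C, while the WT pools had 2.41 and 2.0. At 29 °C it exceeded WT 2.72 times (1.39 to 5.94), so its signal stood above WT beyond counting error but short of the limit of 4 times WT. How the authors treated reads from repeats was not stated in the labels. The aligner logs list no read as aligned more than 1 time, which does not show that reads in this repeat had only 1 possible place.

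Cd36 had a pair of strong sites and a pair of weaker ones. The strongest, intergenic at -30.3 kb (chromosome 5, 17425005 to 17425205), had 23.69 FPKM in HA-RevErbα at 4 °C and 7.49 at 29 °C, while the WT pools had 3.7 and 4.2. The next, in intron 1 of 15 at 12.1 kb (17382542 to 17382742), had 22.28 FPKM in HA-RevErbα at 4 °C and 6.34 at 29 °C, while the WT pools had 1.85 and 1.8. The intervals of their HA-RevErbα values at 4 °C overlapped (21.1 to 26.5 and 19.8 to 25.0 FPKM). The WT signal at -30.3 kb was equalled or passed by 0.757% of all 4 °C windows in the 4 °C pool and by 0.258% in the 29 °C pool. Since the list requires at least 4 times WT at 4 °C, high WT values there occur only with high HA-RevErbα values.

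The weaker Cd36 sites had 10.44 and 8.79 FPKM in HA-RevErbα at 4 °C. The first of these, at 0.906 kb from an alternative start and also within intron 1 of 15 (17354604 to 17354804), had 1.65 FPKM in HA-RevErbα at 29 °C, against 2.04 FPKM in WT at 4 °C and 2.8 at 29 °C. Its signal at 29 °C was 0.589 times WT (0.283 to 1.26) and so not above WT. The other, at -10.1 kb (17404755 to 17404955), kept 3.88 FPKM in HA-RevErbα at 29 °C, against 2.04 FPKM in WT at 4 °C and 1.6 at 29 °C. It still exceeded WT 2.42 times at 29 °C (1.13 to 5.94).

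Fabp4 was the only member with a site annotated to the promoter, a class that holds 3.82% of all 4 °C sites. That site lay at -0.162 kb (chromosome 3, 10208638 to 10208838) and had 19.22 FPKM in HA-RevErbα at 4 °C and 5.68 at 29 °C, while the WT pools had 4.43 and 2.8. The stronger site lay at -5.37 kb (10213841 to 10214041), with 25.26 FPKM in HA-RevErbα at 4 °C and 7.33 at 29 °C, while the WT pools had 3.51 and 5.59. An enhancer that drives Fabp4 in adipocytes and binds PPARγ with RXR is known at about this distance upstream; whether the window covers it was not tested.

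The Fabp4 sites stood out by their WT signal. The 5.59 FPKM in WT at 29 °C at -5.37 kb was the highest WT 29 °C value among all 11227 windows, the next being 4.99. The 4.43 FPKM in WT at 4 °C at the promoter was equalled or passed by 0.258% of the windows. By the limit of 4 times WT, only windows with high HA-RevErbα signal at 4 °C can hold such a value, so this rank is partly set by the list. HA-RevErbα exceeded WT 7.21 times at -5.37 kb at 4 °C (4.54 to 12.1) but 1.31 times at 29 °C (0.849 to 2.08), an interval that includes 1. At the promoter it exceeded WT 4.34 times at 4 °C (2.85 to 6.91) and 2.03 times at 29 °C (1.13 to 3.91). At both sites the excess at 4 °C is a condition of the 4 °C list.

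WT signal above the median was found at the other members too. WT at 4 °C was above its median over all 4 °C windows at 12 of the 12 sites, and WT at 29 °C at 10 of 12, the exceptions being Lpl at -27.7 and 73.6 kb. The margin was small at Lpl -27.7 and -14.0 kb, with 1.3 FPKM in WT at 4 °C against a median of 1.12. That value was equalled or passed by 45.1% of the windows. At 29 °C, in contrast, WT at Lpl -14.0 kb had 4.2 FPKM, which was equalled or passed by 0.258% of the windows. The list caps WT at 4 °C by the HA-RevErbα density of each window. That density was higher at the 12 sites than in the whole list (medians 18.0 and 7.07 FPKM), which left room for higher WT values at 4 °C. Summed over the 12 windows, HA-RevErbα exceeded WT 7.24 times at 4 °C (6.16 to 8.55) and 1.99 times at 29 °C (1.68 to 2.38). Over all 4 °C windows these sums gave 6.93 times at 4 °C and 2.63 times at 29 °C. Since the list requires an excess over WT at 4 °C, part of the contrast between temperatures is built in. The interval at 29 °C lay above 1 at 7 of the 12 sites, against 41.5% of all 4 °C windows, and included 1 at the other 5. The part of the WT signal in these values was not tested.

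The comparison of 4 °C with 29 °C asks how Rev-Erbα binding at these genes differed after a week in the cold. The ratio of HA-RevErbα read density, 4 °C over 29 °C, was above 1 at all 12 sites and its counting interval lay above 1 at all 12. This does not set the 4 genes apart, because the interval lay above 1 at 95.4% of all windows of the 4 °C list, a list chosen on 4 °C signal. The ratios ran from 2.27 to 6.34 with a median of 3.42, against a median of 3.05 over all 4 °C windows. Summed over the 12 windows the HA-RevErbα pools had 2704 reads at 4 °C and 763 at 29 °C, which per read of the pool is a ratio of 3.38 (3.12 to 3.67). In the same windows the WT pools had 159 reads at 4 °C and 158 at 29 °C, for which the ratio was 0.930 with an interval that included 1 (0.742 to 1.17). Over all 4 °C windows the WT ratio was 1.02 (1.01 to 1.03). The 4 °C list limits WT at 4 °C but not at 29 °C, so these WT ratios cannot show whether the background was equal. Over all 4 °C windows the summed HA-RevErbα ratio was 2.68 (2.67 to 2.69).

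By gene, the summed ratio was 3.83 at Lpl (3.27 to 4.52), 2.88 at Angptl4 (2.43 to 3.42), 3.37 at Cd36 (2.91 to 3.91) and 3.42 at Fabp4 (2.86 to 4.11). Setting the genes against each other in all 6 pairs, the Lpl ratio was 1.33 times that of Angptl4, with an exact conditional interval of 1.05 to 1.69 that lay above 1. The intervals of the other 5 pairs included 1. These intervals are not adjusted for the number of pairs and cover counting error only.

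Single sites varied most at Cd36. The site at 0.906 kb had the largest ratio of the 12, 6.34 (3.95 to 10.7), while that at -10.1 kb had the smallest, 2.27 (1.60 to 3.27), and these intervals did not overlap. The ratios at the strong Cd36 sites lay between them, at 3.16 (2.50 to 4.05) for -30.3 kb and 3.52 (2.72 to 4.59) for 12.1 kb. At Lpl the ratio was 4.77 (3.40 to 6.84) at -31.6 kb, 4.97 (2.78 to 9.54) at -27.7 kb, 2.96 (2.05 to 4.33) at -14.0 kb and 3.63 at 73.6 kb, all with overlapping intervals. The pair at Angptl4 had 3.11 (2.35 to 4.16) at -7.37 kb and 2.74 (2.21 to 3.42) at 2.15 kb. The pair at Fabp4 had 3.45 (2.72 to 4.41) at -5.37 kb and 3.39 (2.58 to 4.49) at the promoter. Of the 14 pairs of sites of the same gene, the interval of the ratio between their ratios excluded 1 in 3, each of them a pair of the Cd36 site at 0.906 kb with another Cd36 site. That site had 20 HA-RevErbα reads at 29 °C, and against the site at 12.1 kb the interval reached down to 1.04. These intervals too are not adjusted for the number of pairs.

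At the sites that still gave a value, the ratios within a gene spread further when each WT pool was subtracted from the HA-RevErbα pool of its temperature. They carry no interval, and the largest were divided by small differences from WT at 29 °C. These differences were 0.58 FPKM at Lpl -31.6 kb, 0.35 FPKM at Lpl -27.7 kb and 1.74 FPKM at Fabp4 -5.37 kb. A single WT read at 29 °C is 0.199 FPKM, and at each of these sites the HA-RevErbα over WT interval at 29 °C included 1. At Lpl the subtracted ratios came to 23.6 at -31.6 kb, 12.7 at -27.7 kb and 3.81 at 73.6 kb. At Fabp4 the subtracted ratios came to 12.5 at -5.37 kb and 5.14 at the promoter, from like ratios before subtraction. Whether the subtracted ratios differ beyond counting error was not tested. At Angptl4 the values were 4.20 at -7.37 kb and 3.20 at 2.15 kb, and at Cd36 6.08 at -30.3 kb, 2.96 at -10.1 kb and 4.5 at 12.1 kb. Lpl at -14.0 kb and Cd36 at 0.906 kb gave no value, since HA-RevErbα did not exceed WT there at 29 °C.

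**Figure D2:**
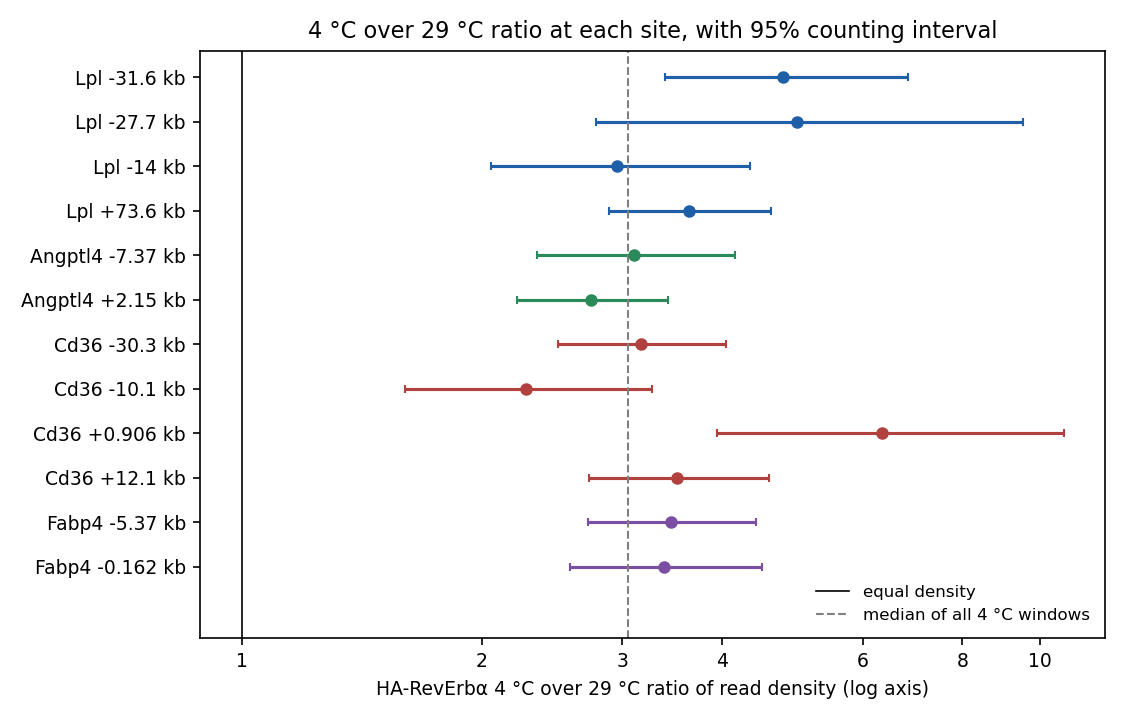
HA-RevErbα read density at 4 °C over that at 29 °C (log axis) at each of the 12 sites, with 95% counting intervals; the solid line marks equal density and the dashed line the median of all 4 °C windows, 3.05. All 12 points lie to the right of 1, and the Cd36 sites at 0.906 kb (6.34) and -10.1 kb (2.27) lie at the extremes.

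The scaling of the pools changes the size of these ratios. When the pools were scaled to equal WT reads in the windows that both lists share, every ratio was divided by 1.44 and the summed ratio became 2.35. Scaled on all windows of the 29 °C list, which were selected on low WT 29 °C values, every ratio was divided by 1.71, the summed ratio became 1.98, and the interval of the Cd36 site at -10.1 kb reached down to 0.940.

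The 12 windows at 4 °C can be ordered by HA-RevErbα density. From the top came Lpl at 73.6 kb, Angptl4 at 2.15 kb, Fabp4 at -5.37 kb and Cd36 at -30.3 and 12.1 kb, so the leading site of every gene was among the first 4. After these followed the Fabp4 promoter, Angptl4 at -7.37 kb, Lpl at -31.6 kb, Cd36 at 0.906 kb, Lpl at -14.0 kb, Cd36 at -10.1 kb and Lpl at -27.7 kb. The counting intervals of neighbours in this order failed to overlap at 2 steps, between Lpl at -31.6 kb and Cd36 at 0.906 kb, and between Cd36 at -10.1 kb and Lpl at -27.7 kb.

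The positions of the sites differed between the genes. Fabp4 and Angptl4 had both of their sites within 10 kb of the TSS, Cd36 had 1 of 4 and Lpl none. This made 5 of 12 within 10 kb, against 26.1% of all 4 °C sites, and 11 of 12 within 50 kb, against 66.2%. By annotation 8 of the 12 were intergenic, 3 intronic and 1 at a promoter, against 44.3% intergenic and 47.8% intronic in the whole list. The Lpl sites spanned 105 kb and the Cd36 sites 70.6 kb, while those of Angptl4 spanned 9.71 kb and those of Fabp4 5.4 kb. As many sites as Lpl and Cd36, 4 or more, were found at 13.9% of the genes with a 4 °C site.

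**Figure D3:**
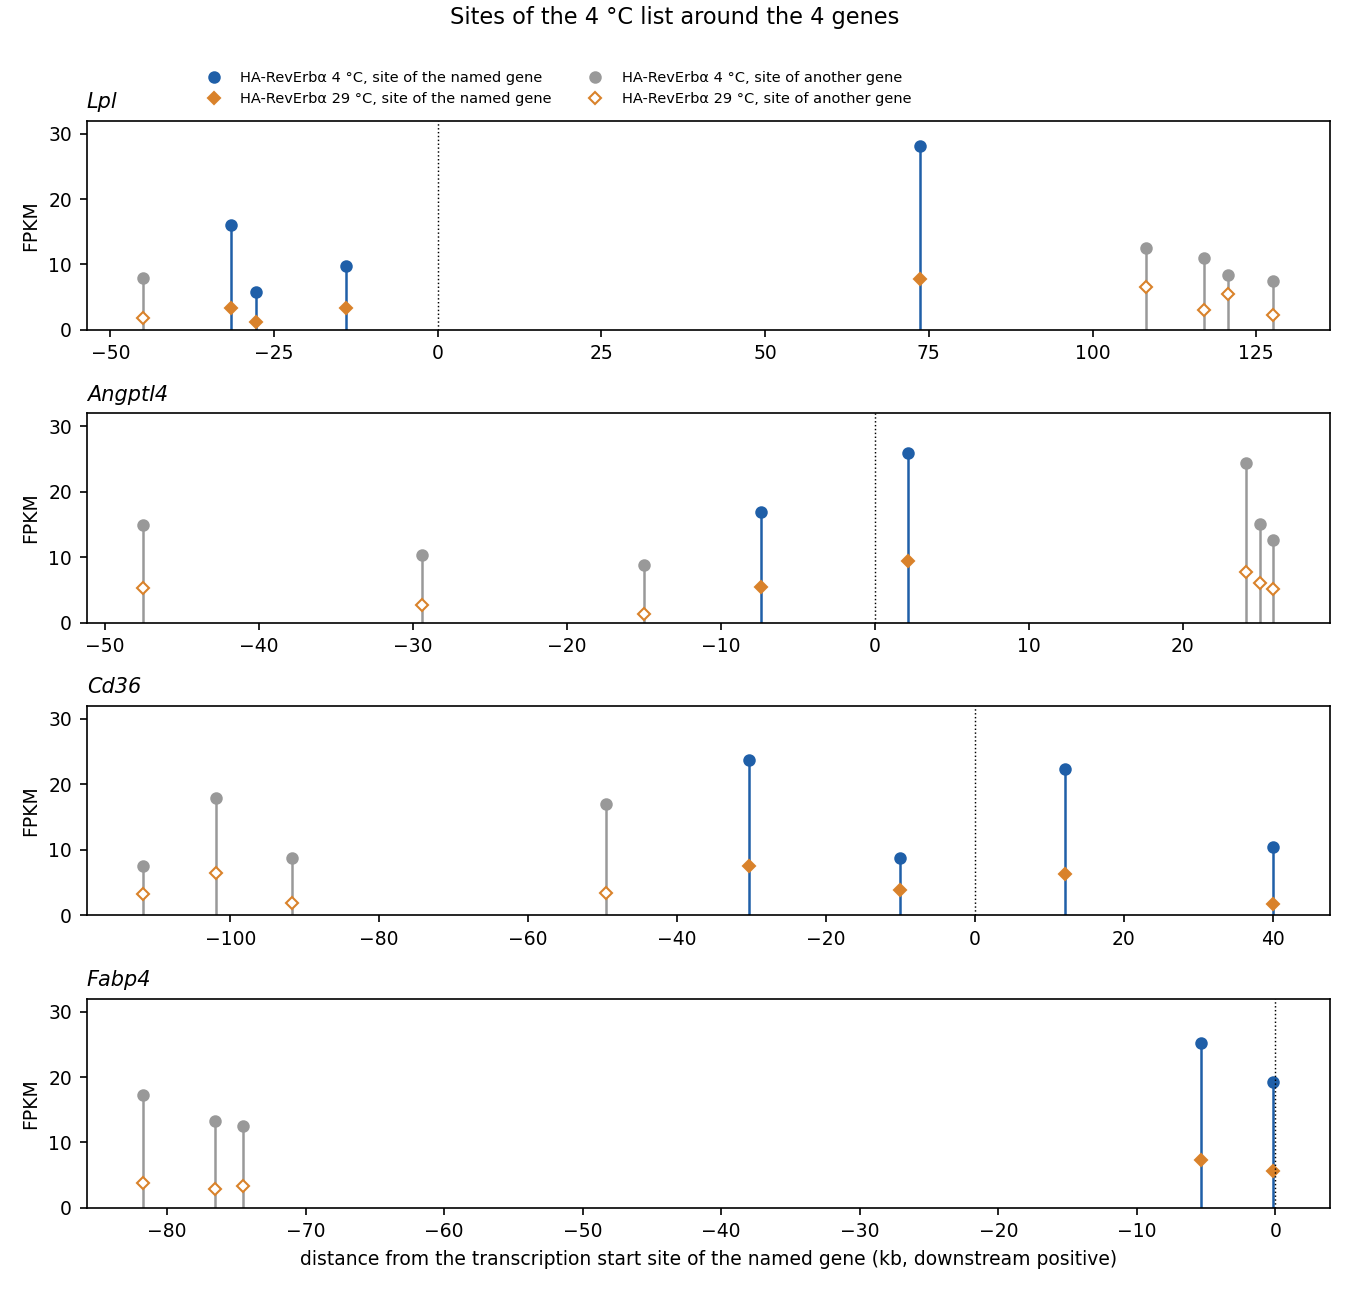
HA-RevErbα read density (FPKM) at 4 °C (circles on stems) and 29 °C (diamonds) against distance from the transcription start site of each gene in kb, with sites annotated to other genes in grey and open symbols, up to 100 kb beyond the outermost site. Lpl has no site within 10 kb of its start, and both Fabp4 sites lie there; the Cd36 site at 0.906 kb from an alternative start is drawn at 40.1 kb from the start used for the other Cd36 sites.

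Other genes of the same route were taken from 3 lists with 32 genes in all. A site at 4 °C was found at 16 of the 32, and a site at 29 °C at 8, against 21.8% and 6.3% of all protein-coding genes. Without the 4 members the counts were 12 of 28 and 7 of 28. These shares describe the lists and were not tested, and no adjustment was made for gene size or open chromatin. The lists were written with earlier results of these data known.

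Among Lpl and its partners 5 of 12 genes, Lpl and Angptl4 included, had a site at 4 °C, against 21.8% of all protein-coding genes. Gpihbp1, whose protein carries LPL to the capillary lumen, had 7.46 FPKM in HA-RevErbα at 4 °C and 2.39 at 29 °C at -3.49 kb, against 0.93 and 2.2 in WT. The 29 °C list held another Gpihbp1 site, at -0.124 kb, with 10.6 FPKM in HA-RevErbα at 4 °C and 3.71 at 29 °C, while the WT pools had 3.33 and 0.61; there the 29 °C signal was 6.19 times WT (1.99 to 31.1). Lipg, the endothelial lipase gene, had 5 sites, the best with 17.89 FPKM at 4 °C and 6.34 at 29 °C, while the WT pools had 1.85 and 1.21. Apoc3, whose protein inhibits LPL, had a promoter site with 7.62 and 2.72 FPKM in HA-RevErbα, while the WT pools had 0.93 and 0.41. No site was listed at Lmf1, which is needed to fold LPL, nor at Sel1l, Angptl8, Apoc1, Apoc2 or Apoa5.

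Among genes of fatty acid uptake, binding and activation 9 of 14, Cd36 and Fabp4 included, had a site at 4 °C, against the same 21.8%. The other cytosolic binding protein genes had weaker sites than Fabp4: Fabp3 had 9.11 FPKM in HA-RevErbα at 4 °C and 2.64 at 29 °C, and Fabp5 had 5.26 and 2.72 FPKM. The WT pools had 1.3 and 1.6 FPKM at Fabp3 and 0.93 and 2.2 FPKM at Fabp5. None of Slc27a1, Slc27a2, Slc27a3 and Slc27a4, the fatty acid transport protein genes, had a site in either list, so Cd36 was the only transporter gene of the list with one. Cav1, which encodes the main caveolar coat protein, had 17.97 FPKM at 4 °C and 4.45 at 29 °C, while the WT pools had 3.7 and 4.2. Of the acyl-CoA synthetase genes, Acsl1 had 6 sites and Acsl5 had 2, with ratios of 1.61 (1.29 to 2.01) and 6.37 (4.27 to 9.84) at the best site of each. The other Acsl5 site, at 13.7 kb, was in both lists, with a ratio of 2.44 (1.82 to 3.31). Acsl4 had 1 site, with a ratio of 1.73 (1.10 to 2.75), and Acsl3 had none. Dbi, the acyl-CoA binding protein gene, had a ratio of 1.69 (1.27 to 2.26).

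Among lipoprotein receptor genes and Apoe, 2 of 6 had a site at 4 °C, against the same 21.8%. Scarb1, the gene of the HDL receptor SR-BI, had 8 sites, the best with 25.57 FPKM in HA-RevErbα at 4 °C and 8.56 at 29 °C, while the WT pools had 3.14 and 3.0. The 29 °C list held 3 Scarb1 sites, none of them the best one, with ratios of 1.40, 3.31 and 1.43. Vldlr, a receptor for triglyceride-rich particles, had a best site with 9.66 and 1.65 FPKM in HA-RevErbα, while the WT pools had 1.67 and 1.8. A further Vldlr site, at -17.7 kb, was in both lists and had 9.18 FPKM in HA-RevErbα at 4 °C and 4.94 at 29 °C, with WT at 0.56 and 0.61, a ratio of 1.86 (1.35 to 2.58). Lrp1, Lsr and Apoe had none.

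At the best site of each of the 16 genes the 4 °C over 29 °C ratio had an interval above 1, as at 95.7% of the best sites of all 5451 genes with a 4 °C site, and a median of 3.06. The 4 members ran from 2.74 to 3.63 with a median of 3.31, and those 5451 genes had a median of 3.03. Acsl1, Acsl4, Dbi and Fabp5 had ratios under 2 at their best site (Fabp5 1.94), while Acsl5 and Vldlr (5.86) had the largest.

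**Figure D4:**
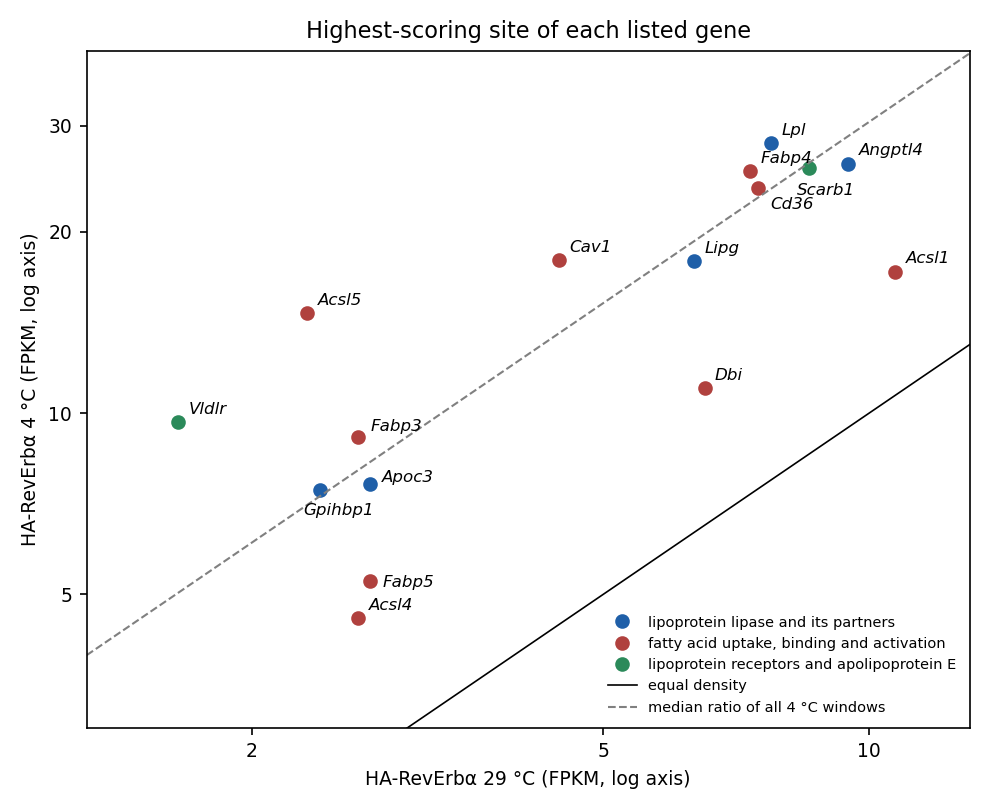
HA-RevErbα read density at 4 °C against that at 29 °C (FPKM, log axes) at the highest-scoring site of the 16 listed genes with a 4 °C site; the solid line marks equal density and the dashed line the median ratio of all 4 °C windows. Lpl, Fabp4, Cd36, Angptl4 and Scarb1 lie together at 23.69 to 28.08 FPKM at 4 °C, and every gene lies above the solid line.

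The genes with the most similar values were found by the distance between the log2(FPKM + 0.5) values of best sites over the 4 pools, among 5450 other genes for each member. For Lpl these were BC018473 (distance 0.276), Mir1904 (0.342) and Lhfpl2 (0.349). For Angptl4 they were Ap2a2 (0.208), Acot1 (0.219) and 4930558K02Rik (0.249). For Cd36 they were Syn2 (0.258), Foxo3 (0.287) and Cluh (0.300). For Fabp4 the closest was Cd36 itself (0.391), followed by Syn2 (0.455) and Cluh (0.495). With 4 pools per gene this describes similar levels and nothing more.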

How the data were processed

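Brown adipose tissue of HA-RevErbα and WT mice at 4 °C and 29 °C gave 12 ChIP-seq libraries, grouped by sample title. The submitters' processing notes name the tools Bowtie2 2.1.0 and HOMER 4.10 and the build mm9 but not what each was used for. Per the file headers, the authors' lists hold peaks of pooled libraries, 1 list per temperature, with the annotated gene and 4 FPKM values. The deposited FPKM count reads per kilobase of a 200 bp window and per M pooled reads, and the authors added 0.01 to each. The deposited peak score is a signal: reads of a site per 10 M pooled reads. Peak-calling settings are not stated in the labels.

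All FPKM values, less 0.01, were whole multiples of a step per pool (100% of 13410 values per pool, within 0.01 FPKM), which gave reads and pool sizes. The recovery and the intervals were tested on simulated data. Ratios carry exact Clopper-Pearson intervals and levels exact Poisson intervals; the ratio of a pair of ratios carries an exact conditional interval. Sites were shared when they overlapped by at least 1 bp. A shared site was read in its 4 °C window. No p-value was computed. Coordinates are printed as deposited. Gene names of the lists were matched through gene IDs of GRCm38.p6 (32 of 32). Python 3.11.15, SciPy 1.17.1 and pandas 2.3.3 were used. The members and lists were chosen with earlier results of these data known. Named genes were all members with all sites, every list gene with a site, and the 3 closest genes per member. Some list genes without a site are counted but not reported here by name.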

Additional observations from a re-analysis of the deposited data

Results flagged for a closer look

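At 2 of the 12 sites HA-RevErbα was above WT at 4 °C and below WT at 29 °C, with 1 pool on each side. Being above WT at 4 °C is a condition of the 4 °C list, so only the sign at 29 °C was free to vary. At the Lpl site at -14.0 kb the difference, HA-RevErbα minus WT, was 8.43 FPKM at 4 °C and -0.9 FPKM at 29 °C. At the Cd36 site at 0.906 kb it was 8.4 FPKM at 4 °C and -1.15 FPKM at 29 °C. The difference between temperatures was not tested. At 29 °C the HA-RevErbα over WT ratio had intervals that included 1 at both sites, 0.452 to 1.40 at Lpl and 0.283 to 1.26 at Cd36. A value below WT at 29 °C was found at 13.5% of all 4 °C windows. At the Lpl site the WT pools had 7 reads at 4 °C and 21 at 29 °C. The WT value at 29 °C, 4.2 FPKM, was equalled or passed by 0.258% of all 4 °C windows. HA-RevErbα at 29 °C had 3.3 FPKM there, above its list median of 2.39.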

How the results depend on the processing

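The count of 12 member sites at 4 °C became 5 within 10 kb of the TSS, and that of 1 at 29 °C became 0 within 50 kb and 0 within 10 kb. The summed 4 °C over 29 °C ratio of 3.38 became 2.35 and 1.98 when scaled on WT reads in shared and in all 29 °C windows (shifts of 0.53 and 0.77 on the log2 scale), and 5.85 with WT subtracted, where only 10 of 12 sites gave a value of their own. It stayed above 1 in these and in the other alternatives run, and so did each site's ratio where it had a value. Scaled on all 29 °C windows, the interval lay above 1 at 11 of the 12 sites. Genes of the 3 lists with a 29 °C site became 3 of 32 within 10 kb and 5 at stricter limits of 5 FPKM and 5 times WT, against 8. No paired analysis was possible because every binding value came from a pool, and for the same reason no library could be left out. A low WT count, 4 to 28 reads per window at 29 °C, limits every ratio to WT.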

Other observations

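Sites annotated to other genes lay near all 4 members, so the gene assignment rests on distance alone. Within 100 kb of the outermost Lpl sites the 4 °C list held 5 such sites and the 29 °C list 2. Of these, 4 at 4 °C were assigned to Atp6v1b2, a proton pump subunit gene, although they lay at -80.6 to -100 kb from its TSS and 34.5 to 54.0 kb from the distal Lpl site. The Atp6v1b2 site at -100 kb had 12.48 FPKM in HA-RevErbα at 4 °C and 6.51 at 29 °C. Its ratio of 1.92 had an interval of 1.46 to 2.55, which lay below that of the distal Lpl site (2.89 to 4.61). That of the Atp6v1b2 site at -87.4 kb, 1.55 (1.13 to 2.13), lay below it too, while those at -91.1 kb, 3.61 (2.50 to 5.33), and -80.6 kb, 3.35 (2.17 to 5.35), overlapped it. Beside Angptl4, intronic sites of Rab11b reached 24.4 FPKM in HA-RevErbα at 4 °C and 7.74 at 29 °C, and that site was in both lists. Beside Cd36, 4 sites were assigned to Gnat3, a taste transducin gene, the strongest with 17.97 and 6.42 FPKM at 4 °C and 29 °C. Beside Fabp4, 3 intronic sites of its relative Fabp12 had 17.26, 13.34 and 12.48 FPKM at 4 °C and 3.79, 2.81 and 3.3 FPKM at 29 °C, with ratios of 4.56, 4.77 and 3.79.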
